A study of Oryza sativa with 10 samples.

Results

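The 5 genes described here, AKT1, HAK1, HAK5, HAK16 and HAK21, encode potassium uptake proteins of the rice root. They were chosen by gene identifier from the 38978 genes of the count files, and 4 of the 5 passed the filter on low counts and were tested. RNA from rice (Oryza sativa) roots was sequenced in S13, a genotype labelled salt tolerant, and in S3, a genotype labelled salt susceptible. All plants were 42 days old, having grown without added salt for 30 days and then spent 12 days in culture solution, either with 140 mM NaCl (salt) or without it (control). The groups were S13 salt (n = 3), S13 control (n = 2), S3 salt (n = 3) and S3 control (n = 2), so each kind of plant is represented by a single genotype. The labels do not say how many plants went into a library, or whether the replicates of a group are separate plants. The p-values therefore reflect how far these libraries differ among themselves, which may be a technical spread.

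Potassium enters root cells by channels, which let the ion pass down its electrochemical gradient, and by high-affinity transporters, which can take it up when little is available outside. AKT1 is an inward-rectifying channel of the Shaker family and is the main such channel of root potassium uptake. The HAK genes belong to the KT/HAK/KUP family of transporters. In rice HAK1 is known as a high-affinity transporter that rises when potassium is scarce, HAK5 for uptake and for the movement of potassium towards the shoot, and HAK16 and HAK21 for keeping potassium and sodium in balance under salt. Sodium competes with potassium for uptake, which is why these genes are followed in salt-stressed roots.

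AKT1 is Os01g0648000, on the minus strand of chromosome 1 from 26119741 to 26126165 of IRGSP-1.0, with 3389 exon bases in 11 blocks. HAK1 is Os04g0401700, on the plus strand of chromosome 4 from 19886674 to 19892355, with 3183 exon bases in 9 blocks. HAK5, Os01g0930400, lies on the plus strand of chromosome 1 from 40825678 to 40830191, with 2683 exon bases in 9 blocks. HAK16 and HAK21 both lie on the minus strand of chromosome 3. HAK16, Os03g0575200, spans 21002797 to 21007629, and HAK21, Os03g0576200, spans 21060638 to 21064968. The gap between them is 53008 bp and holds 3 other genes, none of which passed the filter on low counts. Both have 10 exon blocks, with 2904 exon bases in HAK16 and 2400 in HAK21.

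The libraries held 22938524 to 25703942 counts. Read counts scaled to library size (CPM) were adjusted by TMM factors, which ranged from 0.729 to 0.922 in salt libraries and from 1.31 to 1.42 in control libraries. On this scale 3 counts correspond to 0.0916 to 0.173 CPM, a limit that covers counting error only. The most abundant 10 genes of a library took 10.1% to 14.7% of the counts in salt libraries and 6.0% to 8.17% in control libraries. Using library totals in place of TMM factors moved the median salt response over all genes, as a log2 fold change, to -0.76 in S13 and -0.77 in S3, against -0.03 and -0.06 with TMM factors. Of the markers of root and green tissue that were looked for, the files name psbA alone, a plastid gene of photosystem II. It was at 10.3 to 18.8 CPM in salt libraries and at 36.4 to 99.7 CPM in control libraries. Its part in the results was not tested, and the root identity of the tissue rests on the labels.

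Reads over AKT1 and HAK1 could not be assigned to a strand. AKT1 shares 84.2% of its exon bases with Os01g0648225 on the opposite strand, and the partner's count was 98.2% to 100% of the AKT1 count in every library, with differences of 0 to 6 reads. The AKT1 values below are therefore those of AKT1 and this partner together. The 0 to 6 reads left are too few to show how much of this signal is AKT1's own. HAK1 shares 40.3% of its exon bases with Os04g0401751 on the opposite strand, whose count was 66.3% to 82.0% of the HAK1 count. In S3 that share was 66.3%, 71.3% and 66.8% in salt libraries, against 76.1% and 82.0% in control libraries, so the groups did not overlap. In S13 it was 76.8%, 80.1% and 74.7% in salt libraries, against 80.6% and 78.4% in control libraries, and the groups overlapped. How often such shares separate for other pairs of overlapping genes was not computed. HAK5, HAK16 and HAK21 share no exon base with another gene.

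**Figure D1:**
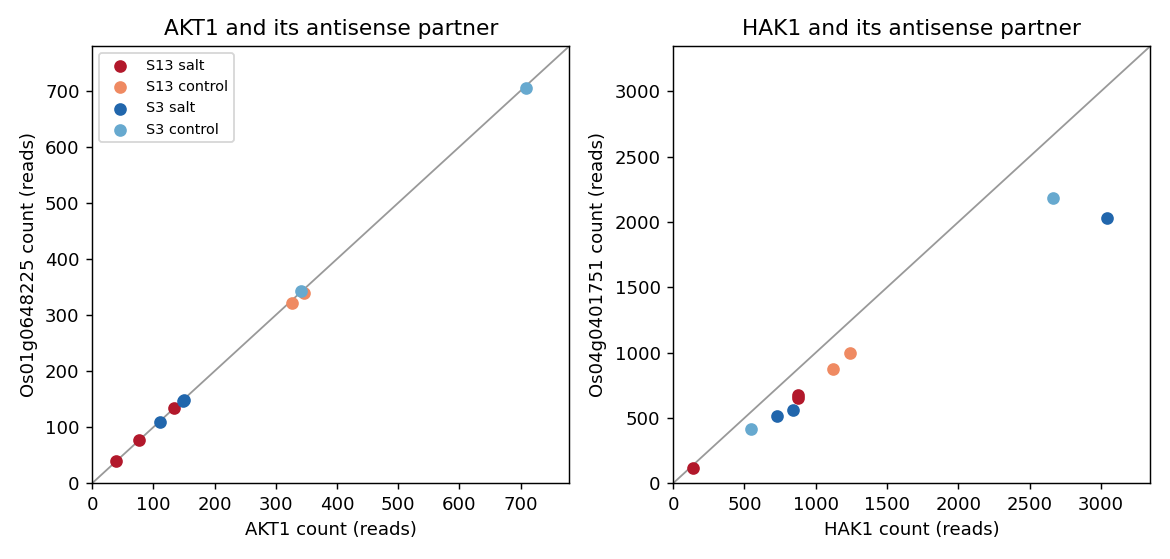
Read counts of AKT1 (left) and HAK1 (right) on the x axis against those of the gene on the opposite strand on the y axis, with a point per library, colours for the 4 groups and a grey line where both counts are equal. The AKT1 points lie on the line within 6 reads, and the HAK1 points lie below it, with partner counts of 66.3% to 82.0% of the HAK1 count.

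Under salt, AKT1 fell in both genotypes, HAK5 rose in S3 and HAK16 fell in S13, whereas HAK1 did not pass the test in either genotype. On the TMM scale salt and control libraries did not overlap for AKT1, HAK5 and HAK16 in either genotype, 3 of the 4 tested genes. The same held for 57.5% of all tested genes in S13 and 61.7% in S3. Of the 4 tested genes, 2 were called in S13, both lower, where 27.1% of all 28189 tested genes were called and 14.2% were called lower. HAK16, 1 of these 2, entered the test through its control libraries alone. In S3, 2 were called, 1 higher and 1 lower, where 32.8% of tested genes were called, 14.4% higher and 18.4% lower. With library totals the S13 calls numbered 1377 higher and 10003 lower and the S3 calls 1638 higher and 10400 lower, against 3613 higher and 4014 lower in S13 and 4059 higher and 5178 lower in S3 with TMM factors. Calls are those of edgeR's quasi-likelihood test at a Benjamini-Hochberg adjusted p under 0.05 over all tested genes.

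**Figure D2:**
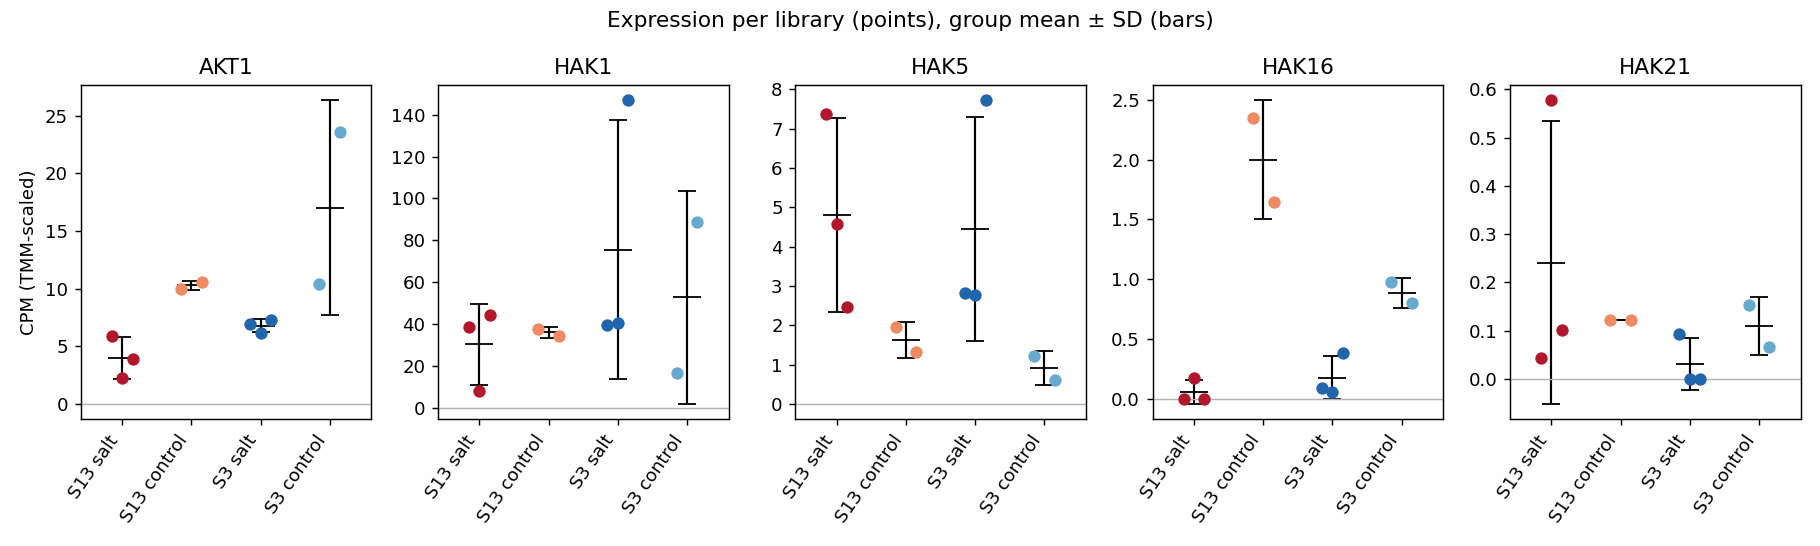
TMM-scaled CPM (y axis, linear, a separate scale for each gene) of the 5 genes in the 4 groups, with a point per library and bars for the mean ± SD. AKT1 and HAK16 are lower in every salt library than in any control library of the same genotype, HAK5 is higher, and the HAK1 and HAK21 groups overlap in both genotypes.

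The channel gene AKT1 was at 5.89, 2.25 and 3.89 CPM in S13 salt libraries, against 9.99 and 10.6 CPM in S13 control libraries. In S3 it was at 6.95, 6.16 and 7.25 CPM in salt libraries, against 10.4 and 23.6 CPM in control libraries. Every salt library lay below every control library of the same genotype, and the second S3 control library stood well above the other. Such lower values arise in the same way from fewer cells of a type or from less RNA per cell, which cannot be told apart in whole roots. AKT1 averaged 4.01 ± 1.82 CPM (SD, n = 3) in S13 salt and 10.3 ± 0.412 CPM (SD, n = 2) in S13 control, a log2 fold change of -1.35 ± 0.42 (SE; edgeR adjusted p = 0.0371). In S3 the means were 6.78 ± 0.559 CPM (SD, n = 3) under salt and 17.0 ± 9.32 CPM (SD, n = 2) in control, with a log2 fold change of -1.33 ± 0.42 (SE; edgeR adjusted p = 0.0326).

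Both AKT1 calls sat close to the threshold. In S13 the call was lost without either control library and without the second or the third salt library. The log2 fold changes were -1.74 to -1.07 over all 5 omissions. In S3 it was lost without the second control library, where the log2 fold change was -0.62 (edgeR adjusted p = 0.370), and without any 1 of the salt libraries. Fitting the S13 groups alone also lost the call (edgeR adjusted p = 0.0690). Over all tested genes, 15.9% had a lower log2 fold change than AKT1 in S13 and 18.7% in S3.

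HAK1, a high-affinity transporter, varied widely between libraries of the same group. It was at 38.6, 8.15 and 44.1 CPM in S13 salt libraries, against 37.8 and 34.2 CPM in S13 control libraries. In S3 it was at 39.5, 40.3 and 147 CPM in salt libraries, against 16.7 and 88.8 CPM in control libraries. The second S13 salt library was low and the third S3 salt library high, and salt and control overlapped in both genotypes on this scale. The log2 fold change was -0.25 ± 0.81 (SE; edgeR adjusted p = 0.842) in S13 and 0.52 ± 0.82 (SE; edgeR adjusted p = 0.656) in S3. Single libraries turned its direction. The log2 fold change in S13 was 0.20 without the second S13 salt library. That in S3 was -0.40 without the third S3 salt library. In S3 it was 2.18 without the second control library (edgeR adjusted p = 0.162) and -0.23 without the first. With library totals it was -0.13 in S3. On that scale HAK1 did not overlap in S13, with 5.94 to 35.6 CPM of the library total under salt and 46.2 to 50.4 in control, and the log2 fold change of -0.94 did not pass (edgeR adjusted p = 0.359).

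Taking the count of the opposite-strand gene off that of HAK1, so that reads in shared bases cancel, left 28 to 1010 reads per library. This step was chosen after the data were seen. It also takes off any reads in exon bases of the opposite-strand gene that HAK1 does not share. The log2 fold change under salt was then -0.02 in S13 (edgeR adjusted p = 0.992) and 1.30 in S3 (edgeR adjusted p = 0.258). Neither passed the threshold, and the value in S3 was larger than with all HAK1 reads.

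HAK5, the other high-affinity transporter, was higher in every salt library than in any control library of its genotype on the TMM scale. It was at 7.38, 4.57 and 2.47 CPM in S13 salt libraries, against 1.95 and 1.31 CPM in S13 control libraries. In S3 it was at 2.82, 2.78 and 7.73 CPM in salt libraries, against 1.22 and 0.60 CPM in control libraries. The groups did not overlap in either genotype, as was so, with salt higher, for 25.8% of all tested genes in S13 and 28.2% in S3. With library totals or per length (TPM) the S13 groups overlapped, with 1.91 to 6.81 CPM of the library total under salt and 1.78 to 2.61 in control, whereas the S3 groups did not.

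The rise of HAK5 passed the test in S3, with 4.44 ± 2.85 CPM (SD, n = 3) under salt and 0.910 ± 0.439 CPM (SD, n = 2) in control and a log2 fold change of 2.28 ± 0.65 (SE; edgeR adjusted p = 0.0227). In S13 the means were 4.81 ± 2.46 CPM (SD, n = 3) under salt and 1.63 ± 0.453 CPM (SD, n = 2) in control, and the log2 fold change of 1.56 ± 0.62 (SE) did not pass (edgeR adjusted p = 0.0852). The S3 call was lost while the rise remained positive: the log2 fold change was 2.88 without the first control library, 1.86 without the second, 1.61 without the third salt library and 1.57 with library totals (edgeR adjusted p = 0.0684, 0.141, 0.0664 and 0.0854 in that order). The S13 value passed with DESeq2 (adjusted p = 0.0349) and without the third S13 salt library (edgeR adjusted p = 0.0480). Over all tested genes, 89.1% had a lower log2 fold change than HAK5 in S13 and 94.7% in S3.

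HAK16, a transporter linked to salt tolerance in rice, had 0, 3 and 0 reads in S13 salt libraries, against 77 and 54 reads in S13 control libraries. In S3 it had 2, 1 and 8 reads in salt libraries, against 32 and 24 reads in control libraries. Salt libraries lay below control libraries in both genotypes, with 0 to 0.173 CPM against 1.65 to 2.35 CPM in S13 and 0.0555 to 0.386 CPM against 0.800 to 0.977 CPM in S3. Groups did not overlap in this direction for 31.8% of all tested genes in S13 and 33.6% in S3. HAK16 passed the filter on low counts through its control libraries alone. Its lower direction under salt is therefore not independent of its having been tested.

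The summed reads of HAK16 were 3 in S13 salt and 131 in S13 control, which is 39.9-fold lower per effective library size, with an exact 95% counting interval of 13.4-fold to 196-fold. In S3 they were 11 under salt and 56 in control, 4.87-fold lower with an interval of 2.52-fold to 10.3-fold. These intervals cover counting error and not the spread between libraries. The fitted log2 fold change was -5.14 ± 1.06 (SE; edgeR adjusted p = 0.00735) in S13 and -2.26 ± 0.92 (SE; edgeR adjusted p = 0.0794) in S3. The size in S13 depended on the second salt library, the only one there with reads: it was -8.69 without that library and -5.36 to -4.53 without any other. The fitted value of a gene with so few reads depends on the model and is no bound. The S13 call was lost without the first control library (edgeR adjusted p = 0.0561), and the S3 value ranged from -3.47 to -1.87 when 1 library was left out. The S3 value passed with DESeq2 (adjusted p = 0.0484), with library totals (edgeR adjusted p = 0.0217) and without the third S3 salt library (edgeR adjusted p = 0.0396).

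HAK21, the other chromosome 3 transporter of the set, was near the limit of detection in every group. It had 1, 10 and 2 reads in S13 salt libraries, against 4 and 4 reads in S13 control libraries. In S3 it had 2, 0 and 0 reads in salt libraries, against 5 and 2 reads in control libraries. These S3 groups overlapped on the TMM scale. On library totals they did not, at 0 to 0.0829 CPM under salt and 0.0872 to 0.217 in control, nor as TPM. The closest libraries held 2 reads each. The 13 reads of S13 salt and the 8 of S13 control gave a ratio of 1.78 per effective library size, with an exact 95% counting interval of 0.683 to 4.95, and 10 of the 13 came from the second library. The 2 reads of S3 salt and the 7 of S3 control gave a ratio of 0.299, with an interval of 0.0303 to 1.57. HAK21 did not pass the filter on low counts. Without the filter its log2 fold change was 0.90 in S13 (edgeR adjusted p = 0.656) and -1.61 in S3 (edgeR adjusted p = 0.471), so a response to salt was not detectable at this depth.

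**Figure D3:**
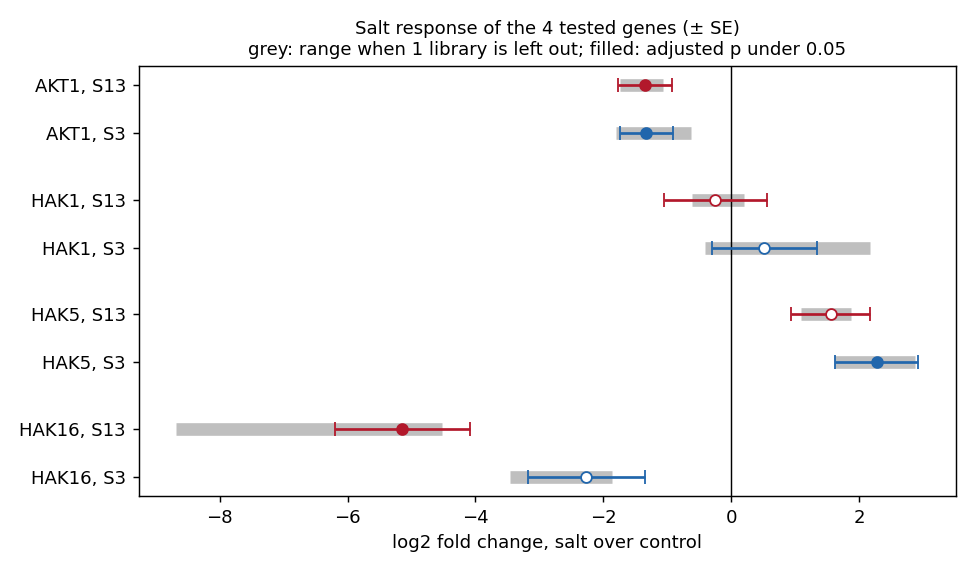
Log2 fold change of salt over control (x axis) for the 4 tested genes in S13 (red) and S3 (blue), as points ± SE, filled where the adjusted p is under 0.05. Grey bars give the range when 1 library is left out, which stays below 0 for AKT1 and HAK16, above 0 for HAK5 and crosses 0 for HAK1.

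The responses of S13 and S3 were then compared with each other in the same model. The difference of the log2 fold changes, S13 minus S3, was -0.03 ± 0.59 (SE) for AKT1, -0.77 ± 1.15 for HAK1, -0.72 ± 0.85 for HAK5 and -2.88 ± 1.47 for HAK16. None of the 4 passed the test (edgeR adjusted p = 1.00, 0.889, 0.850 and 0.615 in that order), and none had an unadjusted p under 0.05. No gene at all was called for this difference by edgeR (0% of 28189), where 2435 genes had an unadjusted p under 0.05 and DESeq2 called 142. For HAK16 the difference was -6.42 without the second S13 salt library and -1.68 without the third S3 salt library, neither of them called. A call in 1 genotype alone, as for HAK5 and HAK16, is therefore not shown to be a difference between the genotypes.

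**Figure D4:**
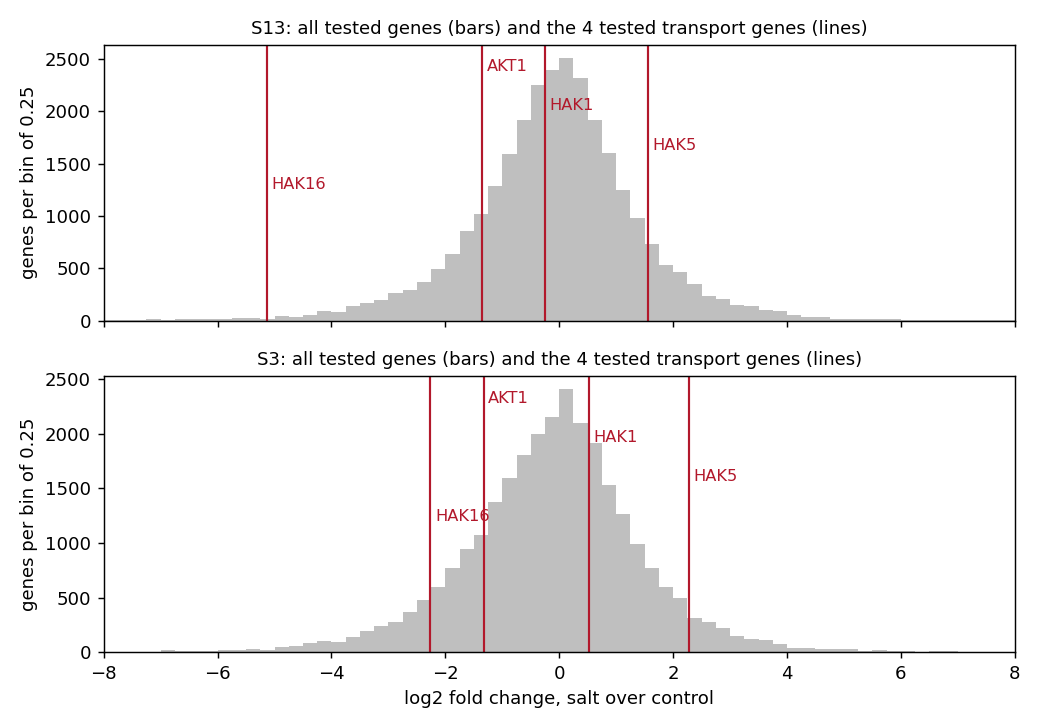
Number of tested genes (y axis) in bins of log2 fold change, salt over control (x axis), in S13 (top) and S3 (bottom), with lines at the 4 tested transport genes. HAK16 lies in the lower tail in S13, at -5.14, and HAK5 in the upper part of both distributions, at 1.56 in S13 and 2.28 in S3.

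Between the genotypes, none of the 4 tested genes was called, with salt or without. Under salt 3.57% of all tested genes were called, 1.8% higher and 1.77% lower in S13. Without salt 1.42% were called, 0.756% higher and 0.667% lower in S13. Groups did not overlap for 1 of the 4 genes under salt and for 2 without it, against 17.5% of all tested genes under salt and 47% without. Under salt AKT1 was at 2.25 to 5.89 CPM in S13 and 6.16 to 7.25 CPM in S3, so S13 was lower without overlap, as were 8.8% of all tested genes, whereas 8.74% were higher without overlap. The log2 difference of -0.75 ± 0.39 (SE) did not pass (edgeR adjusted p = 0.386), and on the scale of library totals the groups overlapped. Without salt the log2 difference of AKT1 was close to this, at -0.73 ± 0.46 (SE; edgeR adjusted p = 0.784). There the groups overlapped on the TMM scale, whereas on library totals S13 was lower without overlap. HAK1 under salt was at 8.15 to 44.1 CPM in S13 and 39.5 to 147 CPM in S3, with a log2 difference of -1.32 ± 0.74 (SE; edgeR adjusted p = 0.425). HAK5 overlapped between the genotypes under salt, at 2.47 to 7.38 CPM in S13 and 2.78 to 7.73 CPM in S3, with a log2 difference of 0.12 ± 0.53 (SE; edgeR adjusted p = 0.954). HAK16 under salt had 3 reads in S13 and 11 in S3 over the 3 libraries of each, and its log2 difference of -1.71 ± 1.16 (SE) did not pass (edgeR adjusted p = 0.529). Without the second S13 salt library it was -5.26 (edgeR adjusted p = 0.0997), and without the third S3 salt library -0.51 (edgeR adjusted p = 0.899).

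Without salt, HAK5 and HAK16 were higher in both S13 libraries than in either S3 library. HAK5 was at 1.95 and 1.31 CPM in S13 and at 1.22 and 0.60 CPM in S3, and HAK16 was at 2.35 and 1.65 CPM in S13 and at 0.977 and 0.800 CPM in S3. With 2 libraries on each side this was so for 21.9% of all tested genes. The log2 differences of 0.84 ± 0.67 (SE) for HAK5 and 1.17 ± 0.90 (SE) for HAK16 did not pass (edgeR adjusted p = 0.877 and 0.864). For HAK21 under salt, the 13 reads in S13 and 2 in S3 gave a ratio of 6.52 with a counting interval of 1.48 to 59.5, which leaves out the spread between libraries. The second S13 salt library held 10 of the 13, and without the filter the difference did not pass (edgeR adjusted p = 0.437).

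Levels of different genes were compared per length, as TPM, in which counts are divided by exon length and scaled to the same sum in every library. With all of its reads, HAK1 had the highest mean in each of the 4 groups, at 9.02 ± 6.0 TPM in S13 salt, 18.4 ± 0.448 in S13 control, 23.3 ± 19.2 in S3 salt and 26.5 ± 24.98 in S3 control (SD, n = 3 for salt and 2 for control). AKT1 came next in S13 control, with 4.94 TPM, in S3 salt, with 1.96 TPM, and in S3 control, with 8.11 TPM. In S13 salt HAK5, with 1.73 TPM, stood above AKT1, with 1.14 TPM. These 2 genes overlapped in range under salt in both genotypes, whereas in control libraries every AKT1 value was above every HAK5 value. In control libraries HAK16 and HAK5 overlapped, with 1.12 and 0.985 TPM in S13 and 0.501 and 0.560 TPM in S3. Under salt the ranges of HAK16 and HAK21 overlapped, with means of 0.0166 and 0.0855 TPM in S13 and of 0.0608 and 0.0141 TPM in S3. HAK1 and its next gene overlapped in S13 salt and in S3 control. The rank of HAK1 rests in part on reads also counted for the opposite-strand gene. The whole count of that gene was taken off, although 92.1%, not all, of its exon bases are shared with HAK1. Over the 1899 exon bases of HAK1 that are not shared, HAK1 then had the most reads per kilobase in 8 of the 10 libraries. It was below HAK5 in the second S13 salt library, with 14.7 against 29.4 reads per kilobase. It was below AKT1 in the first S3 control library, with 69.0 against 100.9. AKT1 kept all of its own reads there, and its opposite-strand gene had the same count, 342 reads. HAK1 and AKT1 were thus not treated alike in this ranking.

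The make-up of the summed TPM of these 5 genes within a library does not depend on the scaling of libraries. AKT1 and HAK1 enter it with all of their reads, including those also counted for their opposite-strand genes. AKT1 made up 10.4%, 12.7% and 7.19% of their summed TPM in S13 salt libraries, against 18.0% and 20.8% in S13 control libraries. In S3 it made up 13.2%, 11.7% and 4.17% in salt libraries, against 33.5% and 19.7% in control libraries. HAK5 made up 16.5%, 32.6% and 5.78% in S13 salt libraries, against 4.44% and 3.27% in S13 control libraries, and in S3 6.73%, 6.67% and 5.61% in salt libraries, against 4.95% and 0.632% in control libraries. The AKT1 share was thus lower and the HAK5 share higher in every salt library than in any control library of its genotype. These shares also move with HAK1, which held 49.0% to 90.0% of the sum. AKT1 had its lowest share in the third S3 salt library, where HAK1 was at 147 CPM. There AKT1 was at 7.25 CPM, the highest of the S3 salt libraries. How often other genes separate by such shares was not computed.

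Set against each other in the same library, HAK5 had 1.58, 2.56 and 0.804 times the TPM of AKT1 in S13 salt libraries, against 0.247 and 0.157 times in S13 control libraries. In S3 the ratio was 0.512, 0.569 and 1.35 in salt libraries, against 0.148 and 0.0321 in control libraries. All 6 salt libraries lay above all 4 control libraries. This restates the lower AKT1 and higher HAK5 values given above and is not separate evidence. The ratio of HAK1 to AKT1 was 6.98, 3.85 and 12.1 in S13 salt libraries, against 4.03 and 3.44 in S13 control libraries, which overlapped. In S3 it was 6.06, 6.95 and 21.6 in salt libraries, against 1.71 and 4.0 in control libraries, which did not overlap. Both genes enter this ratio with the reads also counted for their opposite-strand genes, so it is not shown to be a ratio of their own transcripts. How often other pairs of genes separate in this way was not computed for either ratio.

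**Figure D5:**
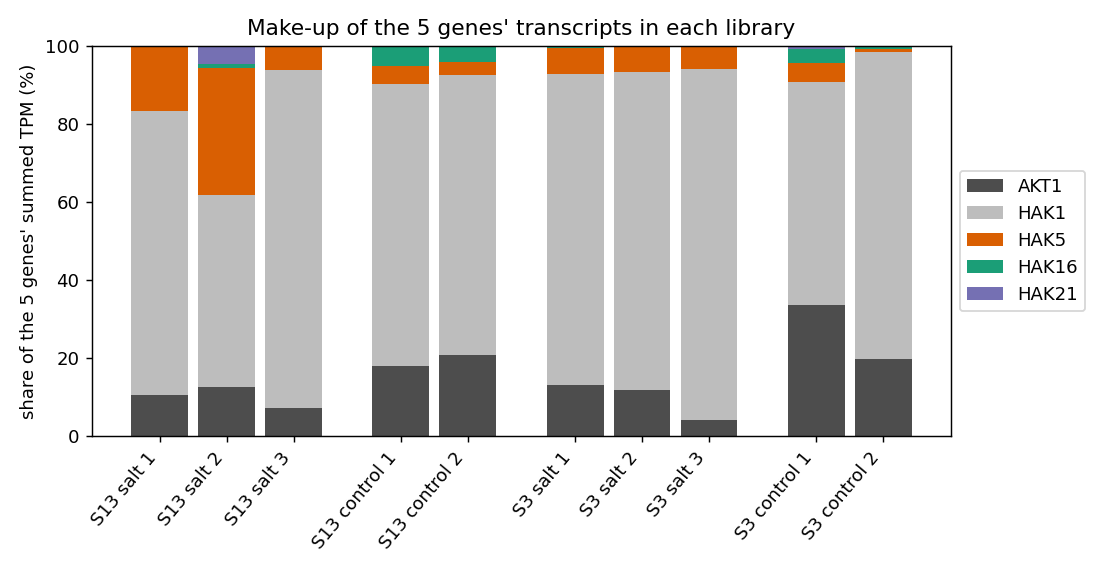
Share of the summed TPM of the 5 genes (y axis, percent) held by each gene in each of the 10 libraries (x axis). With all HAK1 reads, HAK1 holds the largest share in every library, from 49.0% to 90.0%. By reads per kilobase it ranks first in 8 of the 10 libraries once its opposite-strand reads, but not those of AKT1, are taken off. The share of AKT1 is 4.17% to 13.2% in salt libraries and 18.0% to 33.5% in control libraries.

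Likeness of pattern was measured as the root mean square difference of log2(CPM + 0.5), centred on each gene's mean over the 10 libraries. Genes that share exon bases with the gene in question were left out of the search, since they count many of the same reads. The opposite-strand genes lay at 0.0099 from AKT1 and 0.10 from HAK1. Apart from these, the tested gene most like AKT1 was Os04g0169300 (chromosome 4, 4749123 to 4752350), at a distance of 0.22. The gene most like HAK5 was Os07g0537250 (chromosome 7, 21121293 to 21125258), which shares exon bases with Os07g0537300, at 0.26, and that most like HAK16 was Os12g0116400 (chromosome 12, 802534 to 806073), at 0.23. For HAK1 the nearest gene with no shared exon base was Os05g0423500 (chromosome 5, 20761951 to 20764112), at 0.58. Among the tested transport genes themselves, AKT1 and HAK16 were the closest pair, at 0.73, and HAK5 and HAK16 the farthest apart, at 1.56. The added 0.5 CPM compresses the pattern of HAK16, whose levels are low. The sources used here do not pair these 4 identifiers with names.

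The reference table of gene names, of assembly ASM3414082v1, names 25 HAK genes and 39 genes of the HAK, AKT, HKT, TPK and KCO families in all. None of these 39 could be matched to an identifier of the count files, so other potassium transport genes were not analysed here.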

How the data were processed

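The authors deposited raw read counts per gene, not normalized, with exon coordinates and lengths, for 10 rice root libraries. The submitters' processing notes list HISAT2, featureCounts, Trimmomatic, DESeq2 and FastQC and the build IRGSP-1.0. Tool versions, settings and strand handling were not given in those notes. The files hold gene identifiers only, and the names AKT1, HAK1, HAK5, HAK16 and HAK21 come from the definition of the gene set. The genes, tests and lists were chosen with earlier results of these data known. The genes named are these 5, genes sharing exon bases with them, and for each tested one the nearest gene in pattern with a mean of at least 1 CPM and no shared exon base.

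Of 38978 genes, 28189 passed filterByExpr. All libraries entered one edgeR quasi-likelihood fit with a mean for each of the 4 groups and TMM scaling (edgeR 4.0.16, R 4.3.3). Its biological coefficient of variation was 37.3%. Tests covered the salt response in each genotype, the genotypes within each condition, and whether the responses differed. The fit was also run on simulated counts with the same spread for every gene and changes only in genes above a set mean count. That run does not test calls on genes with few reads, such as HAK16. TPM was computed from counts and exon lengths over all genes. Libraries of a group were never alike within sampling noise (chi-square over its degrees of freedom of 34.8 to 205.5), so none was merged. Alternatives were DESeq2 1.42.0, its size factors, library totals, no filter, a filter of 5 CPM in 2 libraries, the compared groups alone, a replicate block, and leaving out each library.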

Additional observations from a re-analysis of the deposited data

How the results depend on the processing

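Of the 4 tested genes, 2 were called for salt in S13; this became 1 with the filter of 5 CPM in 2 libraries, which removed HAK16, 1 with the compared groups alone, 1 with a replicate block, and 0 to 2 when 1 library was left out. In S3, 2 became 1 with a replicate block and 0 to 1 when 1 library was left out. With DESeq2 the calls rose to 3 in each genotype, 1 higher and 2 lower. With library totals the 2 calls in S3 were both lower, with HAK16 in place of HAK5. Under the block AKT1 was no longer called in either genotype (edgeR adjusted p = 0.0750 in S13 and 0.0687 in S3), at log2 fold changes of -1.37 and -1.35. Deviations from group means correlated at -0.135 to 0.199 for libraries with the same replicate number and at -0.228 to 0.239 for others. In a group of 2 libraries the deviations mirror each other, so this check has little power to show pairing. The labels state no block, so the main fit did not pair libraries by number. In the other 3 comparisons none of the 5 genes of the set was called under any setting run. In 1 case, HAK1 in S3, another setting over all libraries turned the direction: -0.13 with library totals and -0.26 with the replicate block, against 0.52. When 1 library was left out, the direction turned in these uncalled values: HAK1 under salt in S13 (-0.62 to 0.20) and in S3 (-0.40 to 2.18), HAK5 in S13 against S3 under salt (-0.36 to 0.78), HAK1 in S13 against S3 without salt (-1.30 to 1.11), and the difference of the responses for AKT1 (-0.73 to 0.45) and HAK1 (-2.42 to 0.15). The cause was not tested. HAK1 had the most reads per length of the 5 genes in 8 of 10 libraries without the reads of its opposite-strand gene, against 10 with them. AKT1 kept the reads of its own opposite-strand gene in both counts. Where a control library is left out, the lone sample is assumed to vary like the other groups.

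Over all genes, DESeq2 called 1893 genes between the genotypes under salt and 846 without, against 1005 and 401 by edgeR. The filter of 5 CPM gave 634 and 246, and the compared groups alone gave 634 under salt. Leaving out 1 library gave 1503 to 7749 calls for salt in S13, 3224 to 7816 in S3, 530 to 1978 between the genotypes under salt, 231 to 275 without, and 0 to 9 for the difference of the responses. Depth limits HAK16 under salt and HAK21 in every group, where 3 counts correspond to 0.0916 to 0.173 CPM.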
